A study of Mus musculus with 11 samples.

Results

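The anterior pituitary makes growth hormone in somatotrophs and prolactin in lactotrophs. Both are secretory cells whose lineage depends on the transcription factor Pou1f1 (Pit-1), and both store their hormone in dense granules. Somatotrophs are driven by growth hormone releasing hormone acting on Ghrhr, whereas lactotrophs are held back by dopamine acting on Drd2. Neither cell type belongs to the brain vasculature, which was the tissue labelled in this series.

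Hormone cells were chosen by their Gh and Prl counts, as barcodes in which these transcripts together made up at least 5% of the UMIs (unique molecular identifiers, each counting 1 captured RNA). A barcode was first kept only if it showed 500 genes or more and if mitochondrial transcripts did not exceed 10% of its UMIs. Of the 61625 kept barcodes in 11 libraries, 193 met this rule (0.313%). Each hormone cell was then called somatotroph-like or lactotroph-like by whether Gh or Prl had more UMIs. Gh and Prl therefore chose the cells, and their levels are given as a description only.

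The 11 libraries came from 1 untreated mouse each. Every mouse carried human NOTCH3 as a transgene. It bore the R182C variant in 6 mice (R182C-TgN3), a model of the small vessel disease CADASIL, and was wild-type in the 5 controls (WT-TgN3). The R182C-TgN3 mice were aged 6 months (n = 3) or 9 months (n = 3) and were 4 females and 2 males. The WT-TgN3 mice were aged 6 months (n = 3) or 9 months (n = 2) and were 3 females and 2 males. Brains were digested to microvascular fragments, captured with antibodies to the endothelial protein CD31 and dissociated to single cells. Libraries held between 17550806 and 64215050 UMIs. The human NOTCH3 transgene gave between 144 and 1866 UMIs per library, and 0 in the hormone cells, which allows up to 0.962 CPM there. CPM, a count scaled to the size of its library or pool of cells, is taken over UMIs other than Gh and Prl unless stated, so that the hormones do not dilute the remaining genes.

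All 193 hormone cells lay in a single library, WT-TgN3 5, from a 9-month-old female. They were 2.79% of its 6912 kept barcodes (95% exact binomial interval 2.42% to 3.21%) and held 7.97% of the UMIs of kept barcodes. The other 10 libraries had 0 hormone cells in 54713 kept barcodes, which allows a share of up to 0.00548% over these libraries together and of 0.0304% to 0.101% in each. Over those 10 libraries only 26 Gh and 188 Prl UMIs were counted among 386703101 UMIs, and no kept barcode reached more than 0.0823% Gh and Prl. Intervals and limits given here cover counting error only, and values within WT-TgN3 5 describe 1 library and have no replicate check. With 1 such library, no comparison of the hormone cells between genotypes, ages or sexes could be made.

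Of those 188 Prl UMIs, 184 were in R182C-TgN3 2, nearly all in 1 barcode in which the hormones made up 22.2% of 821 UMIs and which had too few genes to be kept. Its sequence was also that of a hormone cell of WT-TgN3 5, where they made up 12.3% of 37460 UMIs. Both libraries carry the same batch date in the labels, as do R182C-TgN3 1 and WT-TgN3 4. Between 7 and 38 barcodes of each other library also occurred in WT-TgN3 5, and 5 of these matches were to hormone cells.

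Over mice, the share of hormone cells was 0% in each of the 6 R182C-TgN3 mice and 0.558% ± 1.25 (SD, n = 5) in WT-TgN3 mice. R182C-TgN3 minus WT-TgN3 was -0.558 points, and both this gap and the SD come from WT-TgN3 5 alone. With 1 mouse above 0, the 2-sided exact permutation test over 462 splits gives p = 0.4545 whatever the share in that mouse, so it carries no information on genotype. Without WT-TgN3 5 the difference was 0. Permuting only within batch dates gave -0.465 points (exact permutation p = 1, with 3 dates that hold both genotypes).

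The promoters of Prl and Pou1f1 are shown because Prl is the hormone that sets one kind of cell and Pou1f1 the lineage factor of both kinds. Both stretches are the 240 bases from 250 to 11 bases before the gene's start in RefSeq (GRCm38.p6, plus strand), chr13:27057320-27057559 for Prl and chr16:65520262-65520501 for Pou1f1, at the first of its 2 listed starts. Capitals mark TATNCAT on either strand, letters that Pou1f1 is known to bind.
Prl: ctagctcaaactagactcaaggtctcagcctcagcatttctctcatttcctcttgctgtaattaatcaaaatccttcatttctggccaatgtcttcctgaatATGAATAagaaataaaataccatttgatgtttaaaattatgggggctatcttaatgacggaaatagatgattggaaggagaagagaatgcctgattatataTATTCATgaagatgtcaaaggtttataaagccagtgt
Pou1f1: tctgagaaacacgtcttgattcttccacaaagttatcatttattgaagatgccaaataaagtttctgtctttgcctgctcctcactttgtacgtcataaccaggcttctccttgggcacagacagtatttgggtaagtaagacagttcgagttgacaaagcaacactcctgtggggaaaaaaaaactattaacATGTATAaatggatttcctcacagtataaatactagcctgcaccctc
Prl had 2 matches, starting 148 and 47 bases before the gene's start, and Pou1f1 had 1, starting 57 bases before it. The same letters occurred in 7.76% of all 32851 promoter windows of this length. These matches describe letters and not occupied sites. The gene Prl lies at chr13:27057570-27065205 (plus strand) and Gh at chr11:106300271-106301865 (minus strand) in the GENCODE annotation of the same build.

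Of the 193 hormone cells, 108 were somatotroph-like (56.0%, interval 48.7% to 63.1%) and 85 lactotroph-like (44.0%, interval 36.9% to 51.4%), with 0 ties. In somatotroph-like cells Gh made up 5.23% to 67.9% of the UMIs of a cell, with a median of 23.6%. In lactotroph-like cells Prl made up 5.38% to 57.4%, with a median of 27.9%. The ranges of the 2 kinds overlapped almost whole.

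Few cells held both hormones at a high level. One hormone had at least 10 times the UMIs of the other in 107 of 108 somatotroph-like and 84 of 85 lactotroph-like cells. The lesser hormone reached 1% of UMIs in 2 somatotroph-like cells and 1 lactotroph-like cell. Prl summed to 1166 UMIs over the somatotroph-like cells, of which 561 and 291 came from 2 cells, and to 138 CPM of all UMIs without them. Gh summed to 504 UMIs over the lactotroph-like cells, of which 176 and 88 came from 2 cells, and to 126 CPM without them.

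These residual levels were read against the Gh and Prl found in cells that should lack them. In 3225 barcodes of the same library with endothelial markers, Gh was 239 and Prl 120 CPM of all UMIs, and in 1567 barcodes with microglial markers Gh was 301 and Prl 105. A Gh UMI was seen in 60.2% of both classes and a Prl UMI in 37.1% and 38.2% (median depths of 4851 and 6338 UMIs). The Gh to Prl ratio was 2.00 and 2.87 in these classes. Without the 2 top cells, Prl in somatotroph-like cells (138 CPM) lay above and Gh in lactotroph-like cells (126 CPM) below both classes. The measures are unlike, since the classes kept all their barcodes. In the median cell Gh was 139 and 134 CPM in the classes and 83.2 CPM in lactotroph-like cells. Prl was 0 CPM in the median cell of both classes and 39.2 CPM in that of somatotroph-like cells. Over all cells of each kind, the lesser hormone was seen in 62.0% and 82.4%, at median depths of 20828.5 and 23017 UMIs. Since depths differed from those of the classes, whether the lesser hormone exceeded free RNA was not tested. No expression of it can be read from these values. The hormone cells themselves held 95.2% of the Gh and 96.7% of the Prl UMIs of the library.

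**Figure D1:**
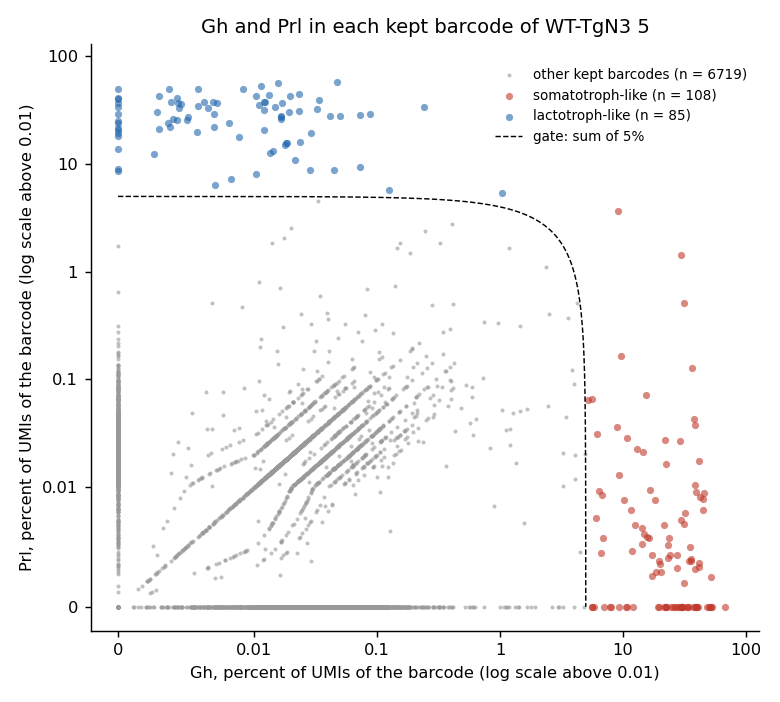
Gh against Prl as a percent of the UMIs of each kept barcode of WT-TgN3 5, on scales that are logarithmic above 0.01. Red points are the 108 somatotroph-like cells, blue points the 85 lactotroph-like cells, grey points the 6719 other kept barcodes, and the dashed line is the 5% gate. Both kinds lie along separate axes, and 2 red points and 1 blue point have at least 1% of the lesser hormone.

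The gate cut a continuous range of hormone share. It left out 8 barcodes between 4% and 5% (4.06% to 4.91%) and took in 6 between 5% and 6% (5.30% to 5.89%). From 1% to 5% there were 55 barcodes, in which Pou1f1 was at 250.01 CPM. The endothelial marker Cldn5 was 692 CPM from 1% to 2% and 443 CPM from 2% to 4%, but 10.4 CPM from 4% to 5%. Inside the gate it was 0 CPM from 5% to 6%, 262 CPM from 6% to 10% and 106 CPM from 10% to 20%. It was 102 CPM from 20% to 50% and 147 CPM from 50% up. From 1% to 2%, Cga, a marker of other pituitary hormone cells, was 1594 CPM. The stem cell marker Mia was 1404 CPM there, and 3706 CPM from 5% to 6%. The part of mixed barcodes in this range was not tested.

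Hormone cells were deeper than their neighbours. Somatotroph-like cells held 818 to 73889 UMIs (median 20828.5), lactotroph-like cells 4106 to 58775 (median 23017), and the other kept barcodes of the library 674 to 117787 (median 5760). Without Gh and Prl the medians were 14750, 15779 and 5755. Genes per cell were 5006, 4793 and 2479 in the median, and 2602, 2420 and 2317 after thinning each cell to 5000 UMIs, which left out 6, 3 and 2708 shallower barcodes. Mitochondrial UMIs were 2.79% and 3.24% in the median of the 2 kinds. Xist was counted 1291 and 1113 times and Y-linked genes 1 and 0 times, so both kinds matched the labelled female mouse.

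The markers of pituitary hormone cells other than Gh and Prl were high in both kinds. Pou1f1 was 266 CPM in somatotroph-like, 360 CPM in lactotroph-like and 6.75 CPM in the other kept barcodes, 45.7-fold higher in all hormone cells together. Over single cells Pou1f1 ran from 0 to 899 CPM (median 234) and from 0 to 1076 CPM (median 330.3). Pitx1, a factor of the whole pituitary, was 109 and 115 CPM against 7.96, and Lhx3, which acts early in the gland, was 43.2 and 38.5 CPM against 5.13. Six6, a factor of the developing gland, was 142 and 333 CPM against 10.7. The labelled marker Chga, a granule protein, was 57.8 and 184 CPM against 15.5, which was 7.43-fold higher in the hormone cells. The label of pituitary hormone cells thus held on markers other than Gh and Prl.

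Against the other kept barcodes of WT-TgN3 5, 4312 of 17754 genes with at least 20 UMIs (24.3%) were at least 2-fold higher in hormone cells and 3801 (21.4%) were at least 2-fold lower. With Gh and Prl left in the library sizes the same counts were 2924 and 5115, since that scaling shifts every gene by -0.46 on the log2 scale in hormone cells. Of 12 genes for granule proteins and prohormone processing, 11 were at least 2-fold higher in hormone cells, with a median log2 difference of 3.15 beside 0.16 over all genes. Of 19 exocytosis genes 16 were, including Snap25, a protein of the fusion complex, at 450.04 and 562 CPM against 18.1. Of 20 ion channel genes tested, 17 were, and of 24 endoplasmic reticulum genes only 4 were. None of 14 dissociation stress genes and none of 8 tested cell cycle genes was 2-fold higher, and Mki67 and Top2a gave 1 and 0 UMIs over all hormone cells.

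**Figure D2:**
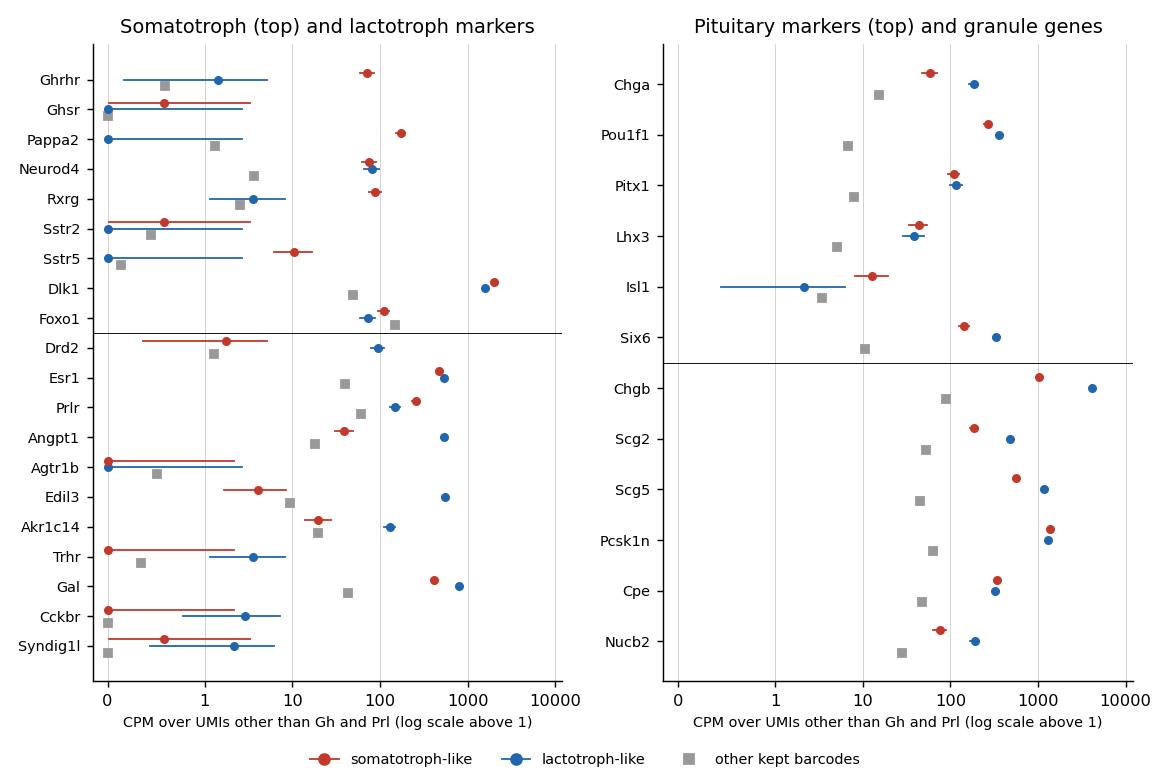
CPM, over UMIs other than Gh and Prl, of somatotroph and lactotroph markers (left) and of the pituitary hormone cell markers and granule genes described here (right), logarithmic above 1. Red and blue points are sums over the 108 somatotroph-like and 85 lactotroph-like cells with 95% exact Poisson intervals, and grey squares are the 6719 other kept barcodes. Ghrhr, Pappa2 and Rxrg are high only in red and Drd2, Angpt1 and Edil3 are highest in blue, whereas Pou1f1, Pitx1 and Lhx3 are high in both.

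The 2 kinds were then set against each other in 11494 genes with at least 20 UMIs over both. At least 2-fold higher were 1245 genes in somatotroph-like cells (10.8%) and 663 in lactotroph-like cells (5.77%), and the median log2 difference over all genes was 0.13 towards somatotroph-like cells. The somatotroph-like cells were summed over 1713176 and the lactotroph-like cells over 1404035 UMIs other than Gh and Prl. Since both kinds come from 1 mouse, these folds compare pools of cells and carry no test.

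Several somatotroph markers separated the kinds. Ghrhr, the receptor for growth hormone releasing hormone, had 123 UMIs in somatotroph-like and 2 in lactotroph-like cells (71.8 and 1.42 CPM, ratio 50.4, interval 13.7 to 421). It was seen in 62 of 108 and 1 of 85 cells. Pappa2, a protease that releases insulin-like growth factors from their binding proteins, had 297 and 0 UMIs (173 CPM), at least 81.1-fold higher against a floor of 3 UMIs over the lactotroph-like cells. Such folds take the floor as fixed, and the lower end of the exact 95% interval of the ratio, which counts the error of both sums, is given beside each (here 65.6). Rxrg, a retinoid X receptor, was 87.6 and 3.56 CPM (ratio 24.6). Sstr5, a somatostatin receptor, had 18 and 0 UMIs. Sstr2 and the ghrelin receptor Ghsr, also markers of somatotrophs, gave 1 UMI each and none in lactotroph-like cells.

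Other markers of that list were shared. Dlk1, an imprinted transmembrane protein, was 2001 and 1562 CPM, or 36.5-fold over the other barcodes in hormone cells together. Foxo1, a forkhead factor, was 110 and 72.6 CPM against 146 in the other barcodes. Neurod4, a basic helix-loop-helix factor, was 75.3 and 80.5 CPM (ratio 0.936, interval 0.721 to 1.22).

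Among lactotroph markers, Drd2, the dopamine receptor, had 3 UMIs in somatotroph-like and 132 in lactotroph-like cells (1.75 and 94.01 CPM, 53.7-fold higher in lactotroph-like cells, interval 17.97 to 264). Edil3, a secreted integrin ligand, was 4.09 and 552 CPM (135-fold) and was seen in 84 of 85 lactotroph-like cells. Angpt1, the ligand of the endothelial receptor Tek, was 39.1 and 531 CPM (13.6-fold), and was seen in 14 of 108 somatotroph-like cells. In the 83 somatotroph-like cells without 3 or more endothelial, microglial or stem markers it was lower. It was 6.98 CPM in those above and 10.3 CPM in those below the median Gh share. Akr1c14, a steroid-metabolising reductase, was 19.8 and 130 CPM (6.53-fold). All 4 stood at or below 19.5 CPM in the other kept barcodes.

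The remaining lactotroph markers did not split the kinds 2-fold or were barely seen. Esr1, the oestrogen receptor through which oestrogen acts on lactotrophs, was 469 and 543 CPM against 40.2 in the other barcodes. Gal, the neuropeptide galanin, was 410 and 796 CPM (1.94-fold higher in lactotroph-like cells). Prlr, the prolactin receptor, leaned the other way at 256 and 149 CPM. Trhr, the thyrotropin releasing hormone receptor, had 0 and 5 UMIs, Cckbr 0 and 4, Syndig1l 1 and 3, and Agtr1b 0 in both.

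**Figure D3:**
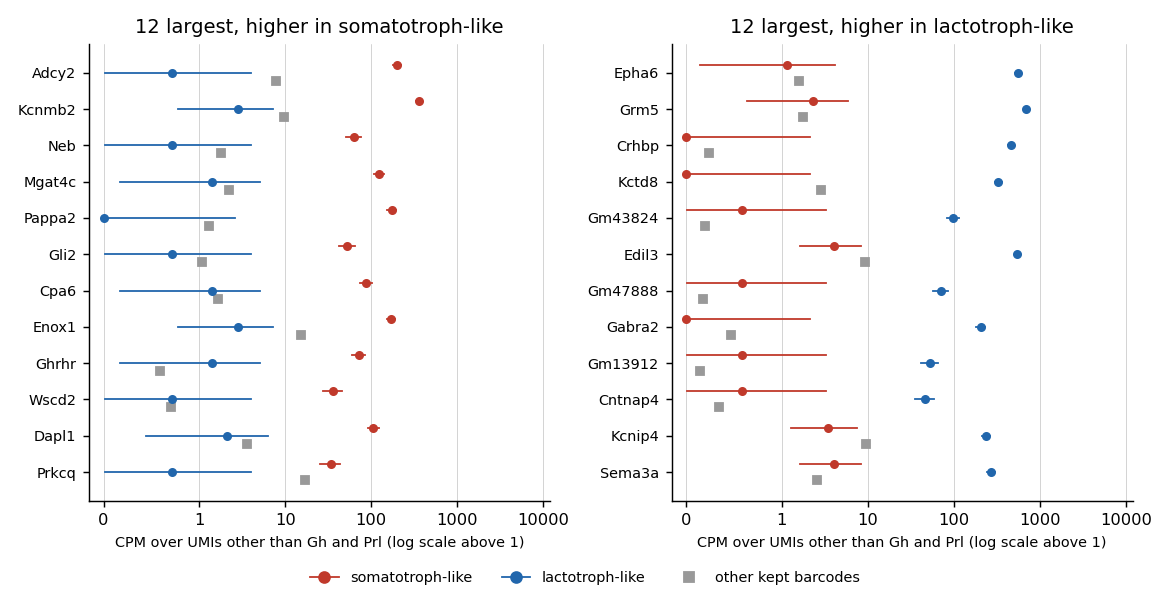
The 12 genes with the largest folds in each direction among genes with at least 20 UMIs, in CPM over UMIs other than Gh and Prl, logarithmic above 1. Red and blue points are the somatotroph-like and lactotroph-like sums with 95% exact Poisson intervals and grey squares the other kept barcodes. In each of the 24 genes the interval of one kind lies apart from that of the other. The genes were chosen for these folds, so the separation is no test, and the intervals cover counting error only.

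The 12 largest folds towards somatotroph-like cells included signalling genes. Adcy2, an adenylyl cyclase, had 340 UMIs in somatotroph-like and 1 in lactotroph-like cells (198 CPM, ratio 279, interval 49.7 to 11038). Kcnmb2, a subunit of the large conductance calcium-activated potassium channel, had 622 and 4 UMIs (ratio 127, interval 49.5 to 469). It was seen in 99 of 108 and 1 of 85 cells. Gli2, a transcription factor of hedgehog signalling, had 90 and 1 UMIs (ratio 73.8, interval 12.9 to 2945). Neb, Mgat4c, Cpa6, Enox1, Wscd2, Dapl1 and Prkcq had ratios from 47.5 (Prkcq) to 87.7 (Neb), on 1 to 4 UMIs in lactotroph-like cells. Ghrhr and Pappa2 complete the 12.

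The 12 largest folds towards lactotroph-like cells included receptors for transmitters and guidance signals. Epha6, an ephrin receptor, had 782 UMIs in lactotroph-like and 2 in somatotroph-like cells (557 CPM, 477-fold, interval 132 to 3946). Grm5, a metabotropic glutamate receptor, had 979 and 4 UMIs (299-fold, interval 116 to 1098) and was seen in 80 of 85 and 4 of 108 cells. Gabra2, a GABA-A receptor subunit, had 290 and 0 UMIs, at least 118-fold higher (lower end 95.3). Kctd8, an auxiliary subunit of the GABA-B receptor, had 464 and 0 UMIs, at least 189-fold higher (lower end 153). Crhbp, the binding protein of corticotropin releasing hormone, had 652 and 0 UMIs, at least 265-fold higher (lower end 215).

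Sema3a, a secreted guidance protein, and Kcnip4, a partner of voltage-gated potassium channels, were 66.1-fold and 68.3-fold higher in lactotroph-like cells, and Cntnap4 79.3-fold on 65 and 1 UMIs. Edil3 and the unnamed gene models Gm43824, Gm47888 and Gm13912 complete the list. Gm47888 is annotated as antisense at chr13:26968491-27058022 and overlaps the start of Prl on the opposite strand. Whether counting used strand is not given in the sources used here, so its 100 UMIs in lactotroph-like cells may include reads of Prl and its value is uncertain.

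Channel genes parted in both directions. Of 20 tested, 6 were at least 2-fold higher in somatotroph-like and 3 in lactotroph-like cells, beside 10.8% and 5.77% of all genes. Kcnma1, the pore subunit that Kcnmb2 and Kcnmb4 associate with, was 478 and 85.5 CPM (5.59-fold higher in somatotroph-like cells, interval 4.61 to 6.83). Kcnmb4 was 87.6 and 4.27 CPM (20.5-fold). Cacna1c, the pore of an L-type calcium channel, was 100.98 and 679 CPM (6.72-fold higher in lactotroph-like cells). Cacna2d1, its auxiliary subunit, was 319 and 911 CPM, and Cacna1g, a T-type channel, 5.25 and 23.5 CPM (4.47-fold). Cacna1h, another T-type channel, went the other way at 22.2 and 2.14 CPM, as did Trpc1 and the release channel Ryr2.

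Granule genes leaned to lactotroph-like cells. None of 12 was 2-fold higher in somatotroph-like cells and 5 were in lactotroph-like cells, beside 10.8% and 5.77% of all genes. Their median log2 difference was -0.60, beside 0.13 over all genes. Chgb, a granin, ran from 0 to 3467 CPM (median 914) over somatotroph-like cells and from 574 to 29761 CPM (median 3228) over lactotroph-like cells. The ranges overlapped, and the sums were 1023 and 4184 CPM (4.09-fold, interval 3.88 to 4.32). Chga was 3.19-fold, Scg2 2.53-fold, Nucb2 2.53-fold and Scg5 2.05-fold higher. Pcsk1n and the carboxypeptidase Cpe, which trims prohormones, were near equal at 1364 and 1295 CPM and at 339 and 326 CPM.

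In the exocytosis list 3 of 17 tested genes were 2-fold higher in somatotroph-like and 1 in lactotroph-like cells, near the 10.8% and 5.77% of all genes, so the counts set the list apart in neither direction. Sytl4 (217 and 35.6 CPM, 6.08-fold), Rab3b (84.05 and 17.1 CPM, 4.92-fold) and Rph3al (223 and 84.8 CPM, 2.63-fold), all of them Rab proteins or their effectors on secretory vesicles, were higher in somatotroph-like cells. Cplx2, a complexin, was 2.12-fold higher in lactotroph-like cells. The calcium sensor Syt1 was 1211 and 731 CPM.

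Of 14 tested pituitary transcription factors, 4 were at least 2-fold higher in somatotroph-like cells and 1 in lactotroph-like cells, beside 10.8% and 5.77% of all genes. The 4 were Rxrg, the glucocorticoid receptor Nr3c1 (299 and 30.6 CPM, 9.78-fold), Isl1 (22 and 3 UMIs) and Gata2 (58 and 16 UMIs). Six6 was 2.34-fold higher in lactotroph-like cells. Pou1f1 was 1.36-fold higher in lactotroph-like cells (interval 1.19 to 1.54).

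Of 24 receptors for hypothalamic and feedback signals 11 were tested, of which 2 were 2-fold higher in somatotroph-like and 3 in lactotroph-like cells, beside 10.8% and 5.77% of all genes. Beside Ghrhr and Drd2 these were receptors for somatostatin and angiotensin, on few UMIs. Sstr3 had 21 UMIs in somatotroph-like and 2 in lactotroph-like cells, Sstr1 had 1 and 19, and Agtr1a 0 and 21. Among 10 genes of growth hormone and prolactin receptor signalling, the secreted growth factor Igf1 had 48 and 0 UMIs and the feedback inhibitor Cish 60 and 16, both higher in somatotroph-like cells. Irs2, an insulin receptor substrate, was 2.08-fold higher in lactotroph-like cells.

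In the cAMP list 2 of 19 genes, Prkar2b (85.2 and 17.1 CPM) and Pde4b (30.4 and 9.97 CPM), were 2-fold higher in somatotroph-like cells and Gnai1 in lactotroph-like cells (8.17 and 28.5 CPM), about the 10.8% and 5.77% of all genes. Gnas, the stimulatory G protein subunit, was 3759 and 3588 CPM. None of 23 endoplasmic reticulum genes differed 2-fold, and the chaperone Hspa5 was 773 and 782 CPM. Of the other secreted peptides, 1 of 5 tested passed, the opioid precursor Penk with 90 and 0 UMIs. In the dissociation stress list Hspa1a and Hspa1b were 2.61-fold and 3.13-fold higher in somatotroph-like cells, while Atf3 and Nr4a1 were 3.90-fold and 3.27-fold higher in lactotroph-like cells. The part of handling in the differences between the kinds was not tested.

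**Figure D4:**
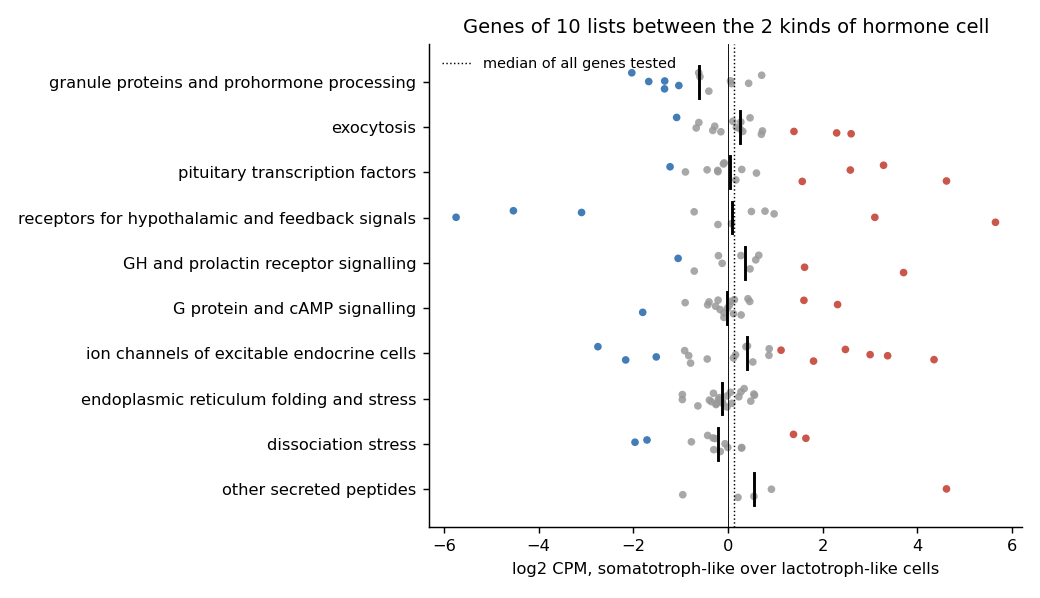
log2 difference in CPM of each tested gene of 10 lists, somatotroph-like over lactotroph-like cells. Red and blue points are past 2-fold, black bars are list medians and the dotted line is the median of all 11494 genes (0.13). Granule genes have the lowest median (-0.60), and no endoplasmic reticulum gene passes 2-fold.

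Markers of other cells were present in some hormone cells. Endothelial markers summed to 480.4 CPM in somatotroph-like, 793 CPM in lactotroph-like and 10117 CPM in the other kept barcodes, with 0 of 8 markers at 0 UMIs in either kind. They made up 0% to 0.972% and 0% to 0.910% of the UMIs of a cell. At least 3 of them were seen in 12 and 11 cells, which held 117 of 128 and 243 of 248 UMIs of Cldn5, a tight junction protein. Microglial markers summed to 130, 378 and 4037 CPM, and at least 3 were seen in 5 and 9 cells. C1qa and Cx3cr1, microglial genes, were 7.86-fold and 4.88-fold higher in lactotroph-like cells.

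Markers of pituitary stem or folliculostellate cells summed to 1292 CPM in somatotroph-like and 273 CPM in lactotroph-like cells, with S100b at 0 in both. At least 3 of these markers were seen in 11 and 2 cells, and those cells held all 1630 and 271 of 272 UMIs of Mia. Their median share of Gh and Prl was 14.8% and 8.48%, below the 26.8% and 28.4% of cells with none of the 3 marker sets. Choroid plexus markers summed to 283 and 116 CPM against 10251, with 3 or more in 23 and 3 cells. Their part in the differences between the kinds was not tested gene by gene. Without the 45 cells that showed 3 or more endothelial, microglial or stem markers, 1037 genes were higher in somatotroph-like and 595 in lactotroph-like cells, and 1156 of the calls were shared with those on all cells.

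Of the remaining lists, mural markers were 9.34 and 2.14 CPM against 861 in the other kept barcodes, fenestrated endothelial markers 19.8 and 17.1 against 724, erythroid markers 3.502 and 4.99 against 3175, and lymphoid markers 2.33 and 0.712 against 22.2. Astrocyte markers were 76.5 and 34.2 CPM against 89.3. Neuronal markers, at 18.7 and 34.2 CPM against 8.31, and oligodendrocyte markers, at 53.1 and 61.3 against 22.1, were higher in both kinds than in the other barcodes. Markers of other pituitary hormone cells were 123 and 83.3 CPM against 1257, with Tbx19, Lhb and Gnrhr at 0.

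The fibroblast list stood out through 1 gene. It summed to 113 and 297 CPM against 30.1 in the other barcodes, of which Col1a2, a chain of type I collagen, gave 192 and 416 UMIs. It was seen in 71 of 108 and 78 of 85 cells, with at most 9 and 26 UMIs in a cell. The partner chain Col1a1 and Lum were at 0 in both kinds.

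Simulated-doublet scores marked 31 of the 193 hormone cells (16.1%) among 402 of 6912 kept barcodes (5.82%), of which 19 were somatotroph-like and 12 lactotroph-like. The part of doublets in the depth of these cells was not tested. Without them 1146 genes were higher in somatotroph-like and 600 in lactotroph-like cells.

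Within each kind, cells were then split at the median share of their own hormone, leaving out the 45 cells with 3 or more endothelial, microglial or stem markers. Since this split uses the values that chose the cells, its folds are a description, with no test. Among somatotroph-like cells the 42 above the median were compared with the 41 below, and 270 of 8241 genes were at least 2-fold higher (3.28%) and 282 lower (3.42%). Pappa2 was 283 and 63.8 CPM (4.43-fold higher above, interval 3.09 to 6.52) and Ghrhr 108 and 49.97 CPM (2.17-fold). Gal was 216 and 810 CPM, 3.74-fold higher in cells with less Gh. Gria4, an AMPA receptor subunit, was 7.48-fold and Dach1, a transcription factor, 3.92-fold higher in cells with less Gh.

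Among lactotroph-like cells 33 above the median were compared with 32 below, where 204 of 7182 genes were at least 2-fold higher (2.84%) and 286 lower (3.98%). Crhbp was 693 and 105 CPM (6.61-fold higher above, interval 4.93 to 9.02) and Nkain2, a sodium pump interacting protein, 686 and 63.3 CPM (10.8-fold). Nnat, neuronatin, was 2.49-fold and Gal 2.09-fold higher in cells with less Prl. Gal was thus higher where the own hormone was lower in both kinds. Drd2 was 90.8 and 91.0 CPM.

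Of 22 tested endoplasmic reticulum genes, 18 were higher in cells with more hormone in each kind, by less than 2-fold in all of them (medians of 0.33 and 0.19 on the log2 scale). Ssr4, a subunit of the translocon, was 1.43-fold and 1.35-fold higher and Manf 1.32-fold and 1.27-fold. Hspa5 was 1.10-fold and 1.06-fold higher, with intervals that include equality (0.961 to 1.25 and 0.909 to 1.23). Creb3l2 was 1.32-fold higher in somatotroph-like cells with more Gh, but its ratio in lactotroph-like cells was 0.737 (interval 0.517 to 1.05). The medians over all genes were 0.02 and -0.04, and the share of all genes that were higher was not counted. These counts come from the same split by hormone share and carry no test.

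Crhbp and Pappa2 marked subsets of their kinds. They were examined after their values were seen, in the same 83 and 65 cells as the split by hormone share, in which choroid plexus and other marker lists were not used to leave out cells. Crhbp was seen in 30 of 65 lactotroph-like cells, which had a median of 23933.5 UMIs and 32.9% Prl, against 19432 UMIs and 25.5% in the 35 without it. Nkain2 was 671 CPM in cells with Crhbp and 49.7 CPM in those without (13.5-fold, interval 8.91 to 21.4). It was seen in only 14 of the 30 cells with Crhbp and in 8 of the 35 without, so the fold is one of pooled UMIs. Adamts19, a metalloprotease, was 5.401-fold and Alk, a receptor tyrosine kinase, 3.66-fold higher in cells without Crhbp, whereas Drd2 and Edil3 differed by less than 2-fold. Adamts19 was seen in 10 cells with and 20 without Crhbp, and Alk in 6 and 17.

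Pappa2 was seen in 49 of 83 somatotroph-like cells, with a median of 22102 UMIs and 31.3% Gh, against 16387 UMIs and 14.3% in the 34 without it. Slc8a1, a sodium-calcium exchanger, was 400.05 and 75.3 CPM (5.32-fold, interval 3.70 to 7.87) and Ghrhr 1.81-fold higher with Pappa2. Gal was 2.85-fold, Olfm3 3.73-fold and Ly6h 3.16-fold higher without it. Slc8a1 was seen in 43 cells with and 15 without Pappa2, Olfm3 in 16 and 16, and Ly6h in 15 and 21. Depth differed between these subsets, and its part in them was not tested.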

How the data were processed

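Single-cell libraries of cerebrovascular cells were made with a 10x Genomics NextGEM kit from 11 mice, grouped by genotype as the labels give it and numbered within genotype in accession order. Per the labels and the study's methods, the authors used Cell Ranger 7.0.0 with mm10 to which human NOTCH3 had been added, and deposited UMI counts per gene and called barcode without normalization. The values were checked to be whole numbers, and 0 columns were left unused.

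From these counts, a barcode was kept if it had 500 genes or more and no more than 10% mitochondrial UMIs. Doublets were not removed. Hormone cells held at least 5% Gh and Prl. Because a single library held all of them, the planned edgeR fits over libraries were not possible. UMIs were summed over cells instead, CPM was taken over UMIs other than Gh and Prl, and genes with at least 20 UMIs and a 2-fold difference were counted. A sum of 0 was set to a floor of 3 UMIs. Intervals are 95% exact Poisson or binomial intervals (scipy 1.17.1, pandas 2.3.3) and cover counting error only. Endothelial-marked and microglia-marked barcodes had at least 4 markers of that type and at most 1 of the other. The fold comparison was tested on simulated data, and doublets were scored with scanpy 1.11.5.

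Some genes are not reported here. Named genes were the markers, listed genes past 2-fold, and the 12 largest folds in each direction. The members and gene lists were chosen with earlier results of these data known.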

Additional observations from a re-analysis of the deposited data

Results flagged for a closer look

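In the WT-TgN3 group of 5 libraries, WT-TgN3 5 stood far from the others in its share of hormone cells (2.79%, nearest library 0%). The same library stood apart in the kept barcodes that are no hormone cells, with Gh at 459.6 CPM of all UMIs (nearest 0.0734), Prl at 169 (nearest 0.0489), Cga, the common subunit of glycoprotein hormones, at 774 (nearest 14.1) and Pomc, the corticotropin precursor, at 284 (nearest 36.8). Among the 6 R182C-TgN3 libraries, Cga was 3.16 CPM in R182C-TgN3 3 (nearest 0.0476) and Pomc was 48.1 in R182C-TgN3 6 (nearest 31.8). The cut-off used sets about 1 in 20 groups of normally distributed values apart, and gives no chance rate here. With every other share at 0, any share above 0 would be flagged. Gh and Prl also chose the hormone cells.

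Outside the hormone cells, WT-TgN3 5 held 18 kept barcodes with at least 1% Cga and 23 with at least 1% Pomc, which no comparison above used. The other 10 libraries held 1 and 0 such barcodes.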

How the results depend on the processing

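The genotype difference in the share of hormone cells ran from -0.637 to -0.365 points over the gate, filter and doublet alternatives. Its direction and p are set by the 1 library that holds the cells, so they say nothing on stability. Leaving out 1 mouse gave -0.698 to 0, the latter without WT-TgN3 5. As a replicate block, 5 pairs of mice with the same age and label number gave -0.558 (exact permutation p = 1), and the labels do not say that a number marks a shared origin. The share of lactotroph-like cells ran from 41.8% (2% gate) to 48.4% (20% gate). Genes past 2-fold between the kinds numbered 1908, and 5582 with no filter on low counts and 605 with at least 100 UMIs. Genes past 2-fold against other barcodes numbered 8113, and 14435 with no filter. These follow from how many genes are tested. For 30 named genes under 14 alternatives, 23 of 420 log2 differences left their counting interval and also moved by more than a small fixed margin. That 0 changed sign is no sign of stability, since most of these genes were named for the largest folds and several alternatives leave a gene's fold as it is. With 1% of other markers as the limit, 0 cells were removed. With at least 250 genes, 1 barcode of R182C-TgN3 2 passed the gate, the one whose sequence was also that of a hormone cell of WT-TgN3 5. Leaving out mixed cells, weighting cells equally and the limit of 100 UMIs were chosen after seeing the data. The edgeR and DESeq2 fits, their normalizations, blocks and left-out libraries, and comparisons of sex and genotype within hormone cells were not run, because 1 library held all cells.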

Other observations

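WT-TgN3 5 also held barcodes rich in other pituitary hormones, none of them counted among the 193. The 18 barcodes with at least 1% Cga had a median of 35512.5 UMIs and summed to 63748 CPM of Cga, 2324 CPM of Fshb, the follicle stimulating hormone subunit, and 1641 CPM of Tshb, the thyrotropin subunit. Gnrhr, the receptor that drives gonadotrophs, was 1686 CPM and Foxl2, a gonadotroph factor, 140 CPM, against 0 UMIs of Gnrhr in somatotroph-like and lactotroph-like cells. Pou1f1 was 30.3 CPM there, against 266 and 360 CPM in the Gh and Prl cells.

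The 23 barcodes with at least 1% Pomc had a median of 13579 UMIs, with Pomc at 37126 CPM and Tbx19, the factor of Pomc cells, at 229 CPM. Pou1f1, Cga and Tshb had 0 UMIs there, and Pitx1 was 158 CPM. No barcode held at least 1% of both Cga and Pomc.

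In the other libraries, R182C-TgN3 3 had 140 Cga and 521 Tshb UMIs and WT-TgN3 4 had 578 Cga, 257 Tshb and 71 Fshb UMIs over all barcodes, with 1 and 3 Gh UMIs.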
